A study of Homo sapiens with 12 samples.

Results

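The genes described are 4 mRNA decay factors, ZFP36 (also called tristetraprolin), its paralogs ZFP36L1 and ZFP36L2, and ZC3H12A (Regnase-1). They were taken by symbol from a table of 19901 genes counted by RNA-Seq, and all 4 passed the filter on low counts, as did 13093 genes in all. The cells were HCT116, a human colorectal carcinoma line, in a single clone (CloneD5) whose endogenous KAP1, the protein of the TRIM28 gene, carries an FKBP12-derived degron at its C-terminus. All 12 libraries carry this allele, and every culture was kept without serum for 48 h with either DMSO, the solvent, or the degrader dTAG present over the last 8 h. Serum was then withheld (S0) or given for 30 min (S30), which makes 4 groups of 3 libraries: DMSO-S0 and dTAG-S0 without serum, and DMSO-S30 and dTAG-S30 with it. Because 1 clone was used, differences between clones were not measured.

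ZFP36 proteins have tandem CCCH zinc fingers that bind AU-rich elements in the 3′ ends of short-lived mRNAs and bring in the CCR4-NOT deadenylase, which removes the poly(A) tail. ZC3H12A also has a CCCH finger, but cuts stem-loops in its target mRNAs with its own RNase domain. The genes of both kinds are known to be switched on by growth factors or inflammatory signals, and their proteins limit how long cytokine and immediate early mRNAs last.

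The ZFP36 gene (ENSG00000128016.5) lies on chromosome 19 at positions 39406813 to 39409412 of hg38 on the plus strand, and exons of the GENCODE annotation cover 74.3% of this counted span. ZFP36L1 (ENSG00000185650.9) lies on chromosome 14 at 68787660 to 68796253 on the minus strand, with 72.2% of the span exonic and 512 bp shared with an lncRNA on the same strand. ZFP36L2 (ENSG00000152518.7) lies on chromosome 2 at 43222402 to 43226609 on the minus strand, with 87.8% exonic and 826 bp shared with an lncRNA on the opposite strand. ZC3H12A (ENSG00000163874.10) lies on chromosome 1 at 37474552 to 37484379 on the plus strand, holds the microRNA gene MIR6732, and has only 28.4% of its span in exons. Reads were counted over whole genes, so intronic reads enter the values of all 4, and their share was not measured.

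The 250 bases before the start site are shown for ZFP36 and ZC3H12A, which had the 2 largest serum responses of the 4, and for the 2 start sites of ZFP36L1, which responded less. They are from RefSeq (GRCh38.p14), which matched 3 of the 4 genes, and are written 5′ to 3′ on the gene's strand. Capitals mark GC boxes (GGGCGG on either strand), TATAA, an EGR site (GCGGGGGCG) and a CRE (TGACGTCA).
ZFP36 (chr19:39406597-39406846, plus strand): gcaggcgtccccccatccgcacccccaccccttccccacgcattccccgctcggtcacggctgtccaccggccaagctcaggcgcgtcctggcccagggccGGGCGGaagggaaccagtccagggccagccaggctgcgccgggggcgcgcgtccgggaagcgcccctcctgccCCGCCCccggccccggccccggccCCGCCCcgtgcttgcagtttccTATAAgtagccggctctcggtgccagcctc
ZC3H12A (chr1:37474330-37474579, plus strand): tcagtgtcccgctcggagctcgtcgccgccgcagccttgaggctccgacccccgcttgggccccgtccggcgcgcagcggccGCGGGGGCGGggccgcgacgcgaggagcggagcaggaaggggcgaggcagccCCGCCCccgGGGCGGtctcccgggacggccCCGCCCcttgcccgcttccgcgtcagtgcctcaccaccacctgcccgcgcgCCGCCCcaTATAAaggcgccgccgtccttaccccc
ZFP36L1, inner start (chr14:68793417-68793666, minus strand): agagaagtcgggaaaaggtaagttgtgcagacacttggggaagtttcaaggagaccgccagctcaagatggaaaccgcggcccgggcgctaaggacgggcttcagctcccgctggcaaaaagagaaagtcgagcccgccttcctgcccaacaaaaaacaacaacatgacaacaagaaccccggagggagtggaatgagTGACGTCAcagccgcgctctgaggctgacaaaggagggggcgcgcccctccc
ZFP36L1, outer start (chr14:68796244-68796493, minus strand): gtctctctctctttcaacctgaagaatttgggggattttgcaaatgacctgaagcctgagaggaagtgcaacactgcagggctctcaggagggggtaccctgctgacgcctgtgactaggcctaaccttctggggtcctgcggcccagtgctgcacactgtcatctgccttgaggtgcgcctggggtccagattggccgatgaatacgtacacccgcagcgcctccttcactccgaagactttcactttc

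The windows of ZFP36 and ZC3H12A resembled each other in composition, with 76.4% and 78.8% G and C, whereas the ZFP36L1 windows held 58.4% and 56.4%. The G and C content of all promoters was not measured, and ZFP36L2 had no window. A link between composition and serum response was not tested. TATAA, the core of a TATA box, stood 30 to 26 bases before the start of ZFP36 and 27 to 23 bases before that of ZC3H12A, and was found anywhere in the window of 18.9% of 35114 RefSeq promoters of the same length. GC boxes, the sites known for SP1, numbered 3 in ZFP36 and 5 in ZC3H12A, and 42.6% of all promoters held at least 1. The EGR site of ZC3H12A, 168 to 160 bases before its start, overlapped a GC box, and 5.37% of promoters held an EGR site (GCGTGGGCG or GCGGGGGCG). The CRE of the inner ZFP36L1 start lay 52 to 45 bases before it, and 1.65% of promoters held one. The shorter core TGACG, part of the full CRE, was also present in the ZC3H12A and outer ZFP36L1 windows and in 21.2% of promoters. On both strands, the letters of a CArG box (the site of serum response factor, in 1.16% of promoters), an AP-1 site (TGACTCA or TGAGTCA, 4.203%), an ETS site (CCGGAA, 14.5%) and an NF-kappaB site (5.21%) were not in these windows, which says nothing of sites elsewhere.

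The libraries held 20537682 to 26278707 counts, of which 7.97% to 9.37% were ERCC spike-ins, synthetic RNAs added to each sample. The TRIM28 transcript, which the degrader is not meant to remove, differed by -0.06 on the log2 scale between dTAG and DMSO without serum (adjusted p = 0.787, edgeR) and by -0.04 with serum (adjusted p = 0.888), so it does not report on the loss of the protein. Of the epithelial markers expected of such a line, 6 of 7 passed the filter, with a summed level of 1150 to 1575 CPM (read counts scaled to a common library size) per library, although VIL1 reached only 7 counts. The leukocyte markers summed to 4.42 to 6.74 CPM and the endothelial markers to 1.89 to 3.97 CPM, with 2 of 6 and 2 of 4 tested. Of 6 fibroblast markers only COL1A1 passed the filter, at 11.8 to 85.5 CPM, while LUM was at 0 in every library.

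The first question was how the decay factor genes responded to serum while KAP1 was present. All 4 rose within 30 min, and the sizes differed widely. ZFP36 rose 10.7-fold and ZC3H12A 2.71-fold, while ZFP36L1 and ZFP36L2 rose 1.67-fold and 1.63-fold. Across all genes tested, 9.18% were called higher and 17.1% lower at an adjusted p under 0.05 (edgeR's quasi-likelihood test), with a median log2 change of -0.07. The values are CPM scaled to the upper quartile of each library; they are relative, and more RNA per cell cannot be told apart from more cells with the RNA.

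ZFP36, the founding member of its family, stood at 12.1, 13.5 and 13.4 CPM in the DMSO-S0 libraries (13.0 ± 0.753, SD, n = 3). In the DMSO-S30 libraries it stood at 153, 127 and 144 CPM (141 ± 13.4, SD, n = 3), so the lowest library with serum lay far above the highest without. Raw counts rose from 229 to 294 without serum to 2874 to 3116 with it. The log2 change was 3.42 ± 0.0824 (SE, adjusted p = 4.30e-22, edgeR), with a 95% interval of the fold from 9.498 to 12.02, and it ranked 37 among the 13093 genes ordered from the largest rise.

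ZC3H12A, the endonuclease, was the least counted of the 4. Its values were 9.65, 9.999 and 8.49 CPM without serum (9.38 ± 0.791, SD, n = 3) and 25.3, 24.2 and 26.99 CPM with serum (25.5 ± 1.39, SD, n = 3). These rested on 173 to 218 and 516 to 559 reads per library, and the groups did not overlap. The log2 change was 1.44 ± 0.105 (SE, adjusted p = 1.74e-11, edgeR), 95% interval of the fold 2.34 to 3.15, at rank 169.

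ZFP36L1 was the most counted of the 4 genes in every library. It stood at 535, 511 and 533 CPM without serum (526 ± 13.3, SD, n = 3) and at 899, 852 and 866 CPM with serum (873 ± 23.8, SD, n = 3). The change was 0.74 ± 0.0648 on the log2 scale (SE, adjusted p = 7.96e-10, edgeR), with a 95% interval of the fold from 1.52 to 1.83. The 2 groups were separate, and the spread within each was under 3% of its mean, at 2.52% and 2.72%.

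ZFP36L2 was measured at 79.1, 80.9 and 78.1 CPM without serum (79.4 ± 1.37, SD, n = 3). With serum the values were 147, 116 and 127 CPM (130.2 ± 15.4, SD, n = 3). Replicates with serum were more spread than those without, but the groups did not overlap. The log2 change was 0.70 ± 0.0882 (SE, adjusted p = 6.62e-07, edgeR), with a 95% interval of the fold from 1.44 to 1.85, which overlaps that of ZFP36L1.

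**Figure D1:**
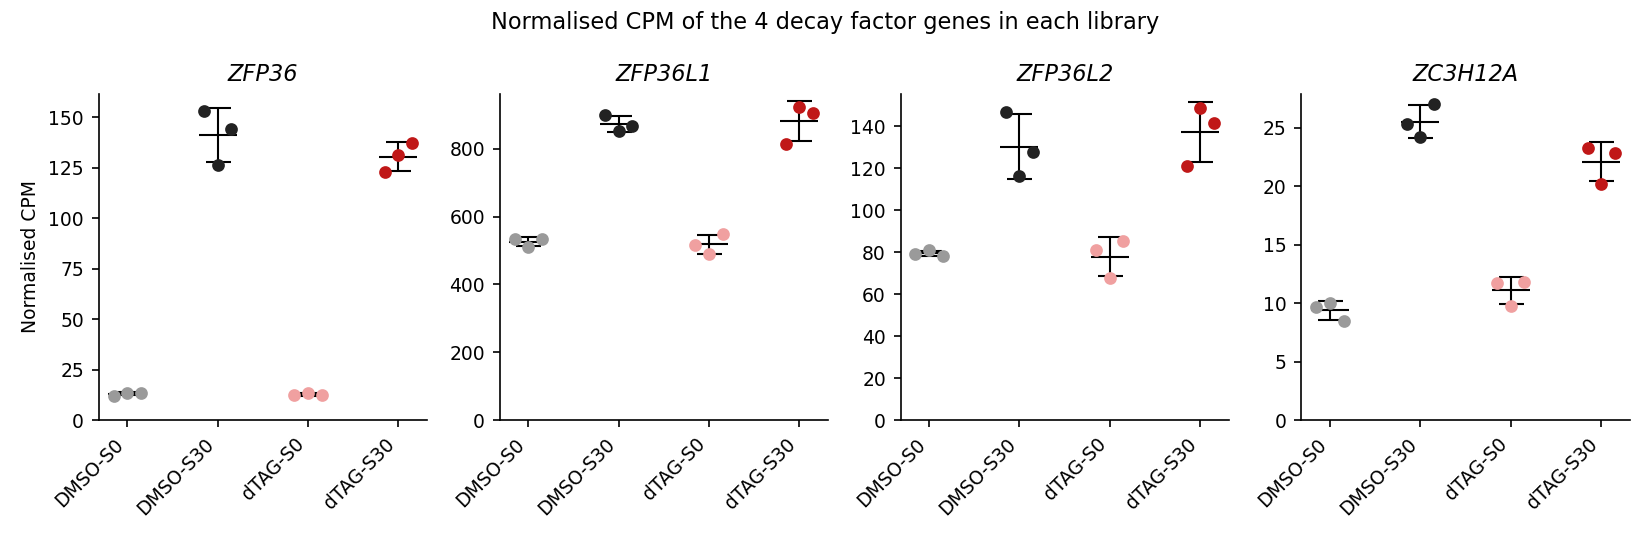
Normalised CPM (linear axes from 0, a separate scale for each gene) of ZFP36, ZFP36L1, ZFP36L2 and ZC3H12A in the 12 libraries; points are libraries, horizontal bars are group means and error bars are SDs of 3 libraries. In each gene the S30 libraries lie above all S0 libraries of the same treatment, and ZC3H12A is the gene whose dTAG-S30 libraries (20.2 to 23.3) lie below its DMSO-S30 libraries (24.2 to 26.99).

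The same question was asked after dTAG. All 4 genes again rose with serum, against 9.09% of genes called higher and 15.4% lower in this comparison, and in each of them the groups did not overlap. ZFP36 went from 12.3, 13.5 and 12.7 CPM to 123, 131 and 137 CPM, a log2 change of 3.36 (adjusted p = 3.35e-22, edgeR; 10.3-fold, 95% interval 9.17 to 11.5; rank 30). ZC3H12A went from 11.7, 9.79 and 11.8 CPM to 23.3, 20.2 and 22.8 CPM, a log2 change of 0.996 (adjusted p = 1.17e-08, edgeR; 1.99-fold, 95% interval 1.73 to 2.30). ZFP36L1 and ZFP36L2 again had the smallest fitted rises of the 4.
ZFP36L1 was at 516, 491 and 547 CPM without serum and at 813, 924 and 905 CPM with it, a log2 change of 0.76 (adjusted p = 3.19e-10, edgeR; 1.69-fold, 95% interval 1.55 to 1.85). ZFP36L2 was at 80.8, 67.7 and 85.1 CPM without serum and at 121, 148 and 142 CPM with it, a log2 change of 0.82 (adjusted p = 2.50e-08, edgeR; 1.77-fold, 95% interval 1.56 to 1.99).

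The next comparisons set dTAG against DMSO at the same serum state, and reuse the libraries of the serum comparisons. None of the 4 genes was called without serum, where 0.855% of genes were called higher and 0.451% lower, nor with serum, where the shares were 0.596% and 0.634%. At an unadjusted p under 0.05, edgeR's quasi-likelihood test gave 1 of the 4 in each comparison, ZC3H12A both times. The share of all genes at this threshold was 11.7% without serum and 10.4% with serum. DESeq2 and edgeR's likelihood ratio test called 0 of the 4. Without serum ZFP36 had a log2 difference of -0.03 (95% interval -0.23 to 0.16; adjusted p = 0.929, edgeR). With serum ZFP36 differed by -0.09 (95% interval -0.23 to 0.05; adjusted p = 0.711, edgeR), a 6.14% lower fitted level that was within the spread between libraries and went from -0.18 to -0.0183 on leaving out 1 library. For ZFP36L1 the differences were -0.01 (95% interval -0.14 to 0.11) and 0.00 (95% interval -0.13 to 0.13), and for ZFP36L2 -0.03 (95% interval -0.21 to 0.15) and 0.08 (95% interval -0.09 to 0.26). The groups overlapped in all of these.

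ZC3H12A differed in opposite directions in the 2 serum states, though neither difference passed the test. Without serum its mean was 11.1 ± 1.13 CPM in dTAG (SD, n = 3), above the 9.38 CPM of DMSO, with dTAG replicate 2 (9.79) inside the range of the DMSO libraries. The log2 difference was 0.24 (95% interval 0.01 to 0.47; adjusted p = 0.385, edgeR), and 0.14 to 0.33 on leaving out 1 library, lowest without DMSO-S0 replicate 3. With serum its mean was 22.1 ± 1.65 CPM in dTAG (SD, n = 3), below the 25.5 CPM of DMSO, and no dTAG library reached the lowest DMSO library. The log2 difference there was -0.20 (95% interval -0.40 to -0.01; adjusted p = 0.438, edgeR).

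Whether the serum response itself differed between dTAG and DMSO was tested as an interaction. None of the 4 genes was called, with 0% of genes called higher and 0.0382% lower; at an unadjusted p under 0.05 there was 1 of the 4, and DESeq2 and the likelihood ratio test called 0. The ratio of the serum folds was 0.735 for ZC3H12A, or -0.44 on the log2 scale (95% interval -0.75 to -0.14; unadjusted p = 0.00602, adjusted p = 0.9999, edgeR's quasi-likelihood test). In this test 3.16% of all genes had an unadjusted p under 0.05, and the ZC3H12A difference did not pass after adjustment over all genes tested. Over the alternative fits and leave-one-out fits its size stayed between -0.53 and -0.33, with adjusted p from 0.379 to 0.99998. The interaction was -0.06 for ZFP36 (95% interval -0.30 to 0.19), 0.02 for ZFP36L1 (95% interval -0.17 to 0.21) and 0.12 for ZFP36L2 (95% interval -0.14 to 0.38).

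**Figure D2:**
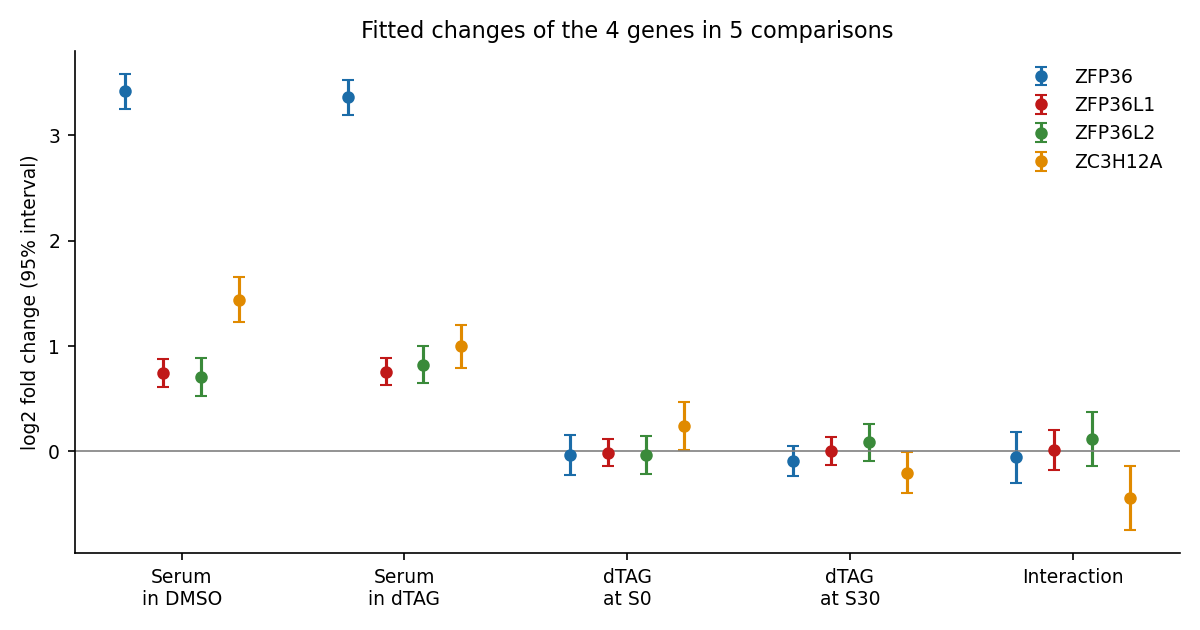
Fitted log2 fold changes of the 4 genes (points) with 95% intervals (bars) in the 5 comparisons; the grey line marks no change, and the interaction is the serum change in dTAG minus that in DMSO. The serum changes of ZFP36 (3.42 and 3.36) stand far above the others, and the dTAG and interaction intervals include 0 except those of ZC3H12A, whose adjusted p values were 0.385, 0.438 and 0.9999.

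To compare the genes with each other, levels were divided by the length of the counted span. In DMSO-S0, ZFP36L1 was highest at 61.2 ± 1.54 CPM per kb, followed by ZFP36L2 at 18.9 ± 0.327, ZFP36 at 5.00 ± 0.289 and ZC3H12A at 0.954 ± 0.0805 (SD, n = 3). With serum in DMSO the order changed, since ZFP36 at 54.3 ± 5.16 CPM per kb passed ZFP36L2 at 30.9 ± 3.65, while ZFP36L1 remained highest at 102 ± 2.76 and ZC3H12A lowest at 2.60 ± 0.142. Neighbours in both orders did not overlap: with serum the lowest ZFP36 library (48.7) exceeded the highest ZFP36L2 library (34.9), and its highest (58.8) lay below the lowest ZFP36L1 library (99.2). The orders in dTAG were the same, with ZFP36 at 4.93 and 50.1, ZFP36L1 at 60.3 and 102, ZFP36L2 at 18.5 and 32.6, and ZC3H12A at 1.13 and 2.25 CPM per kb.

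The summed level of the 3 ZFP36 paralogs went from 85.1 ± 1.08 to 187 ± 11.4 CPM per kb in DMSO and from 83.7 ± 5.24 to 185 ± 12.6 in dTAG (SD, n = 3). ZFP36 made up 5.88 ± 0.384% of this sum in DMSO-S0 and 29.0 ± 1.13% in DMSO-S30, and 5.91 ± 0.610% and 27.1 ± 0.876% in the dTAG groups. ZFP36L1 went from 72.0% to 54.4% of the sum in DMSO and from 72.0% to 55.3% in dTAG, and ZFP36L2 from 22.2% to 16.5% and from 22.1% to 17.6%, although the level of each rose. In CPM per kb, ZFP36 added 49.3 ± 2.98 (SE) with serum in DMSO and ZFP36L1 added 40.3 ± 1.83, so the gene with the lowest starting level of the family had the largest mean increment; this difference was not tested. In dTAG these increments were 45.2 ± 1.595 and 42.2 ± 4.41, which lie within their errors of each other. Dividing by exon length instead, an alternative chosen after the data were seen, kept both orders, with ZFP36 at 5.95% and 29.3% of the sum in DMSO, and placed ZC3H12A at 3.35 and 9.13 CPM per kb of exon.

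**Figure D3:**
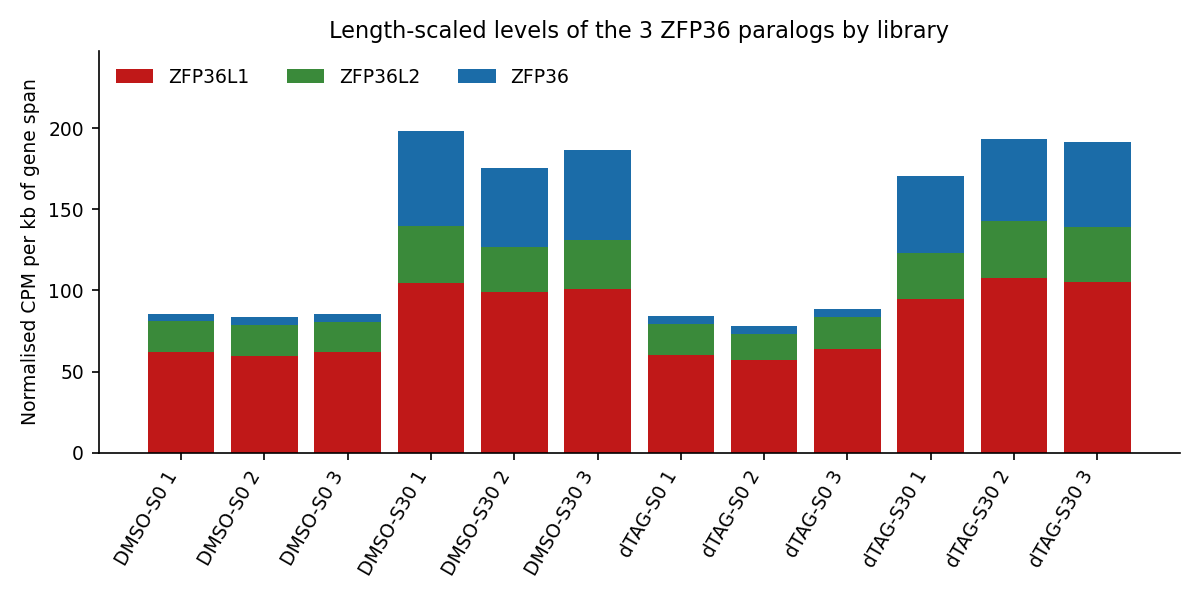
Stacked normalised CPM per kb of gene span of ZFP36L1, ZFP36L2 and ZFP36 in each library, labelled by group and replicate number. The S30 stacks are taller than every S0 stack, and the ZFP36 segment grows from 5.88% to 29.0% of the stack in DMSO and from 5.91% to 27.1% in dTAG.

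The genes most like each member were ranked by Pearson's r of log2 CPM over the 12 libraries. The libraries form 2 clusters, without and with serum, so r mainly follows that split and is a description. ZFP36 was most like FOSB (r = 0.999), an AP-1 subunit, CCN1 (0.998), a secreted matrix protein, and CSRNP1 (0.998), a nuclear protein induced by many signals. With serum in DMSO these rose by 6.41, 6.28 and 4.01 on the log2 scale, all more than ZFP36. In dTAG against DMSO with serum, CCN1 was lower by -0.30 (adjusted p = 0.0126, edgeR) and CSRNP1 by -0.28 (adjusted p = 0.00990), while FOSB (-0.22, adjusted p = 0.0802) and ZFP36 (-0.09) did not pass the test; whether these differences differ from each other was not tested. Both calls were lost without DMSO-S30 replicate 1 or 3 (adjusted p 0.0546 to 0.105) and with library sizes from the spike-ins (0.104 for CCN1 and 0.273 for CSRNP1), and that of CCN1 also without dTAG-S30 replicate 1 (0.0730).

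ZFP36L1 was most like PPP1R15A (0.995), a phosphatase subunit acting on eIF2, ZNF217 (0.994), a zinc finger factor, and TOB1 (0.993), an adaptor of the deadenylase. Their serum changes in DMSO were 1.14, 0.80 and 1.43 on the log2 scale, beside 0.74 for ZFP36L1. ZFP36L2 was most like MYC (0.990), HES1 (0.986), a Notch target repressor, and MT-ND2 (0.986), a mitochondrial gene of respiratory complex I, with serum changes of 0.57, 0.91 and 0.32. ZC3H12A was most like ANKRD37 (0.994), OASL (0.992), an interferon-inducible protein, and LIMA1 (0.991), an actin binding protein. ANKRD37 rose by 3.10 with serum in DMSO and by 2.15 in dTAG, and with serum it was lower in dTAG by -0.50 (adjusted p = 0.0138, edgeR), a call lost when DMSO-S30 replicate 3 was left out (adjusted p 0.133), on omitting dTAG-S30 replicate 2 (0.0686 after adjustment) and with library sizes from the spike-ins (adjusted p 0.0739). Its interaction of -0.94 was not called (adjusted p = 0.177, edgeR), nor were those of OASL (-0.59) and LIMA1 (-0.12), both at adjusted p = 0.9999. ANKRD37, OASL and LIMA1 were picked for their likeness to ZC3H12A in the same libraries. Their values are therefore not independent support for its pattern.

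The proteins act with a larger decay machinery, described here by gene lists that were set with earlier results of these data known. Among the 5 BTG and TOB adaptors, which link mRNA-bound proteins to the deadenylase and restrain growth, all 5 rose with serum in both treatments. Over all genes 9.18% were called higher in DMSO and 9.09% in dTAG. BTG2 rose by 2.81 in DMSO and 2.66 in dTAG on the log2 scale (adjusted p = 1.05e-21 and 1.93e-21, edgeR), TOB1 by 1.43 and 1.27, TOB2 by 0.63 and 0.62, and BTG1 by 0.51 and 0.45. The list medians were 0.63 and 0.62, beside -0.07 and -0.06 over all genes. With serum, BTG2 was lower in dTAG than in DMSO by -0.31 (adjusted p = 0.00757, edgeR), a call lost without DMSO-S30 replicate 3 (-0.26, adjusted p = 0.1103) and with library sizes from the spike-ins (adjusted p = 0.187). Without serum, edgeR's quasi-likelihood test called 0 of the 5 between dTAG and DMSO, with 1 at an unadjusted p under 0.05 and 0 by DESeq2. Of all genes, 0.855% were called higher and 0.451% lower there, and 11.7% had an unadjusted p under 0.05.

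The genes of the decay enzymes themselves were also counted. Of the 11 CCR4-NOT subunits, edgeR's quasi-likelihood test called 0 with serum in DMSO (1 at an unadjusted p under 0.05, 0 by DESeq2 and 1 by the likelihood ratio test). In dTAG it called 1, the deadenylase CNOT8, which was lower by -0.21 (adjusted p = 0.0261). Over all genes, 38.04% had an unadjusted p under 0.05 with serum in DMSO. The lower calls were 0% and 9.09% of the list, beside 17.1% and 15.4% of all genes. The list medians were -0.05 and -0.08. Of 12 genes of the PAN2-PAN3 deadenylase, decapping and 5′ decay, 3 fell with serum in DMSO and 2 in dTAG (25.0% and 16.7% of the list), near the 17.1% and 15.4% of all genes called lower. The decapping cofactor DCP1B fell by 0.60 and 0.49 on the log2 scale, and the decapping enzyme DCP2 by 0.34 and 0.33 (adjusted p from 8.34e-07 to 0.000377, edgeR), while PAN3 was lower by -0.20 in DMSO (adjusted p = 0.0364).

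The relatives of ZC3H12A and the Roquins, which share some of its targets, were not called with serum. Of 7 such genes edgeR's quasi-likelihood test called 0 in each serum comparison, with 2 in DMSO and 1 in dTAG at an unadjusted p under 0.05 and 0 by DESeq2, and the medians were -0.10 and -0.08. Over all genes 9.18% were called higher and 17.1% lower in DMSO, and 9.09% and 15.4% in dTAG. With serum, 38.04% of all genes in DMSO and 36.01% in dTAG had an unadjusted p under 0.05. Other binders of AU-rich elements numbered 5 tested of 6, with 0 called in DMSO (1 at an unadjusted p under 0.05, 2 by DESeq2) and in dTAG the call of TIAL1 (-0.18, adjusted p = 0.0176, edgeR), a regulator of splicing and translation. Of 21 tested genes among 23 with other CCCH fingers, 5 were lower with serum in DMSO and 4 in dTAG, led by ZC3H7A (-0.42 and -0.31), ZC3H6 (-0.30 and -0.24), UNKL (-0.29 in DMSO) and ZC3H8 (-0.27 in both). How many passed depended on the alternative, with 1 to 5 genes lower in each treatment and up to 2 in DMSO and 4 in dTAG higher, while the 4 named kept their sign in all. The 5 and 4 lower calls were 23.8% and 19.0% of the list, beside 17.1% and 15.4% of all genes. Over all genes, 35.0% and 37.2% of serum calls were higher in DMSO and dTAG here and 59.8% and 61.6% with TMM scaling.

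ZFP36 protein is known to be phosphorylated and held inactive by the kinase MK2 downstream of p38. MAPKAPK2, the gene of MK2, rose by 0.78 in DMSO and 0.67 in dTAG (adjusted p = 1.45e-10 and 2.15e-09, edgeR). In DMSO MAPKAPK3, its close paralog, was higher by 0.18 (adjusted p = 0.0408), and MAPK14, the gene of p38 alpha, was lower by -0.19 (adjusted p = 0.0161). Of 5 tested genes among 6 in this p38 and MK2 list, 2 were called higher and 1 lower in DMSO, and 1 higher in dTAG. The higher and lower shares of all genes were 9.18% and 17.1% in DMSO, and 9.09% and 15.4% in dTAG. The list medians were -0.09 and 0.10. PPP2CA, listed as the catalytic subunit of the phosphatase PP2A that opposes MK2, had at most 4 counts in any library, TIA1 of the AU-rich list at most 6 and ZC3H11A of the CCCH list at most 13, so none of them was tested. Cells in general use these genes, so such counts are not read as a lack of expression, and the cause was not tested. These 6 lists, from the CCR4-NOT subunits to the other CCCH genes, were also pooled, without the BTG and TOB adaptors and their BTG2 call. Of their 61 tested genes, edgeR's quasi-likelihood test called 0 between dTAG and DMSO in either serum state. Over all genes 0.855% were called higher and 0.451% lower without serum, and 0.596% and 0.634% with serum, so 0 is near these shares. At an unadjusted p under 0.05 there were 3 without and 1 with serum, beside 11.7% and 10.4% of all genes. DESeq2 and the likelihood ratio test each called 1 in each state, and TMM scaling gave 0 and 1. For the interaction edgeR's quasi-likelihood test called 0, with 0 at an unadjusted p under 0.05 and 0 by DESeq2. Of all genes, 3.16% had an unadjusted p under 0.05 in it, and 0% were called higher and 0.0382% lower.

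Several of these calls lay near the threshold. Those of CNOT8, TIAL1, PAN3 and MAPK14 were lost with TMM scaling, spike-in library sizes and DESeq2 (adjusted p 0.138 to 0.230 for CNOT8, 0.0814 to 0.250 for TIAL1, 0.224 to 0.455 for PAN3 and 0.136 to 0.448 for MAPK14), that of CNOT8 also without the count filter (0.0608), and that of MAPKAPK3 with spike-in library sizes and without the spike-in factor (both 0.0994). ZC3H6 was lost with spike-in library sizes (0.142 in DMSO and 0.233 in dTAG) and in dTAG with TMM scaling (0.0996) and DESeq2 (0.146). UNKL was lost with spike-in library sizes (0.152) and DESeq2 (0.0648), and ZC3H8 with spike-in library sizes (0.172 in DMSO and 0.120 in dTAG). Calls lost when 1 library was left out were CNOT8 (without any dTAG-S0 library or dTAG-S30 replicate 3; adjusted p 0.0519 to 0.148), TIAL1 (without dTAG-S0 replicate 1, or dTAG-S30 replicate 1 or 3; 0.0537 to 0.0604) and MAPK14 (without DMSO-S0 replicate 3, or DMSO-S30 replicate 1 or 3; 0.05003 to 0.119). PAN3 was lost without DMSO-S0 replicate 2 or 3, DMSO-S30 replicate 1 or 3, or dTAG-S30 replicate 3 (0.0504 to 0.185), and MAPKAPK3 without DMSO-S0 replicate 2 or 3, any DMSO-S30 library or dTAG-S30 replicate 3 (0.0591 to 0.163). ZC3H6 was lost in DMSO without replicate 3 of either group (0.0516 and 0.0604), and in dTAG without dTAG-S0 replicate 1 or 2 or dTAG-S30 replicate 2 (0.0756 to 0.146).

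**Figure D4:**
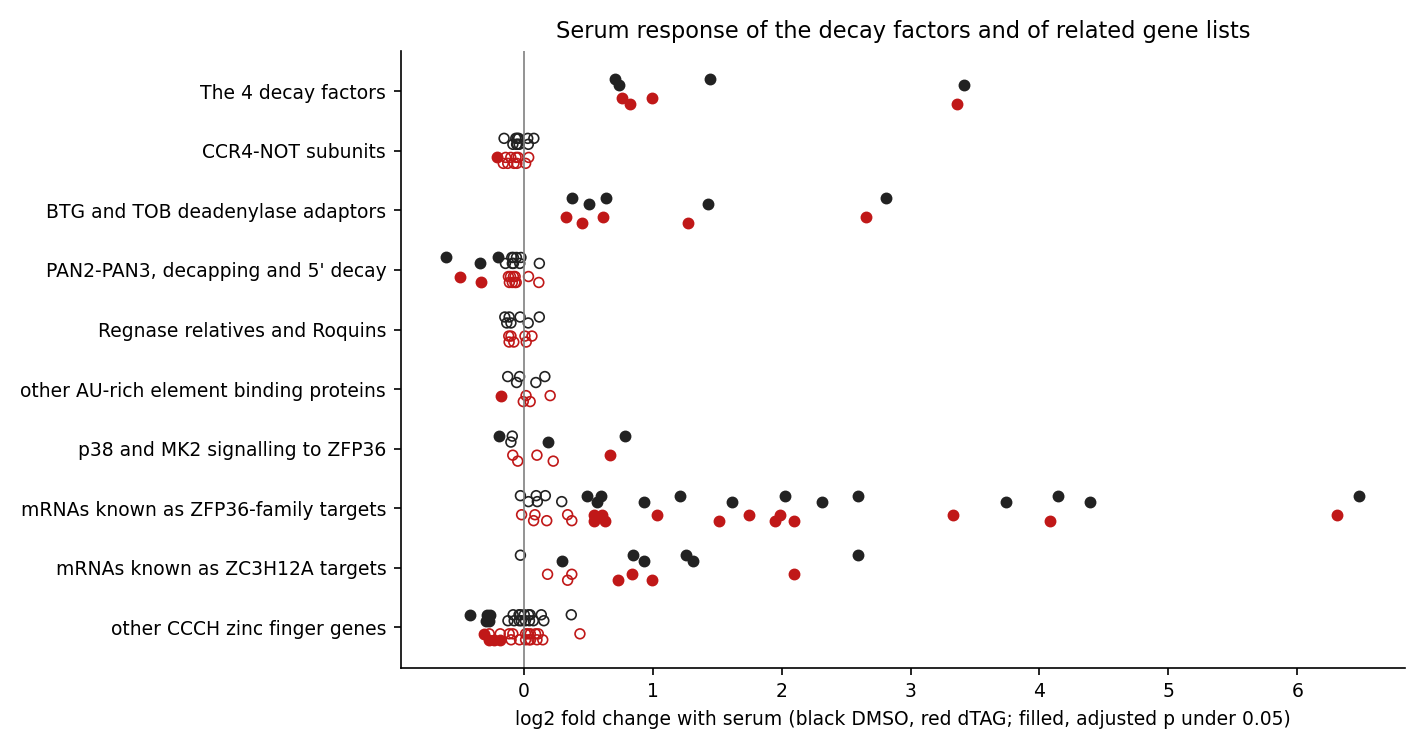
Log2 fold change with serum (horizontal axis) of the 4 decay factors and of the tested genes of 9 related lists, in DMSO (black) and dTAG (red); each circle is 1 gene, and filled circles have an adjusted p under 0.05. The decay factors, the BTG and TOB adaptors and the target lists lie mostly to the right of 0, with BTG2 at 2.81 and 2.66, and the CCR4-NOT, decapping and Regnase relatives lie near or below 0.

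The mRNAs known as targets of the ZFP36 family include cytokine, growth and immediate early genes, and 19 of 24 were tested. Neither binding nor decay was measured here, and the list was set with earlier results of these data known, so its counts are a description. With serum 13 of the 19 rose in each treatment (68.4%, beside 9.18% and 9.09% of all genes called higher), with medians of 0.93 in DMSO and 0.63 in dTAG. FOS, the AP-1 subunit, rose by 6.48 and 6.31, DUSP1, a MAP kinase phosphatase, by 4.39 and 4.08, PTGS2, the inducible cyclooxygenase, by 4.14 and 3.33, and the chemokine CXCL8 by 3.74 and 1.98, all on the log2 scale. PTGS2 started near the filter, from 8 to 14 counts per library in DMSO-S0 and 9 to 17 in dTAG-S0, so the sizes of its rises rest on few reads. TNF, IL6, CSF2, CCL2 and CCL20 had at most 9 counts in a library and were not tested, and CCL2 had none.

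In dTAG without serum 6 of the 19 target mRNAs were higher than in DMSO (31.6%, beside 0.855% of all genes). Because the list was set with earlier results of these data known, this share is not independent support. ZFP36, ZFP36L1 and ZFP36L2 differed by -0.03 to -0.01 on the log2 scale in this comparison, and no link between these values was tested. CXCL8 was higher by 1.69 (adjusted p = 2.82e-08, edgeR), BIRC3, an inhibitor of apoptosis, by 1.35, CXCL1 by 1.28, and PLAUR, PLAU and VEGFA by 0.57, 0.49 and 0.38; apart from CXCL8 these were named as all calls of the list. The count ranged from 3 to 7 over the alternatives. CXCL1 was lost without any of the DMSO-S0 libraries or without dTAG-S0 replicate 1 or 3 (adjusted p 0.0715 to 0.141). It had 11 to 16 counts per library in DMSO-S0 and 31 to 44 in dTAG-S0. With serum BIRC3 (1.24) and VEGFA (0.32) were higher in dTAG, and PTGS2 (-0.80, adjusted p = 0.00300, edgeR) and FOS (-0.32, adjusted p = 0.0166) were lower. Over all genes 0.596% were called higher and 0.634% lower in this comparison. The alternatives gave 1 to 4 higher and 1 to 2 lower calls in the list. The FOS call was lost without DMSO-S30 replicate 1 or dTAG-S30 replicate 1 (adjusted p 0.0690 and 0.0948) and with library sizes from the spike-ins (0.0516). CXCL8 was the only target called for the interaction, at -1.76 (adjusted p = 2.62e-06, edgeR), where 0% of all genes were called higher and 0.0382% lower.

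Of the mRNAs known as ZC3H12A targets, 7 of 10 were tested, 3 of which, CXCL1, CXCL2 and CXCL3, are also on the ZFP36 list. With serum 6 of 7 rose in DMSO and 4 in dTAG (85.7% and 57.1%, beside 9.18% and 9.09% of all genes called higher), with medians of 0.93 and 0.73. This list too was set with earlier results of these data known. CXCL2 rose by 2.59 and 2.09, NFKBID, an atypical inhibitor of NF-kappaB, by 1.31 and 0.84, and REL, an NF-kappaB subunit, by 1.26 and 0.996. CXCL2 started from only 5 to 13 counts per library in DMSO-S0 and 17 to 30 in dTAG-S0. CXCL3 had 6 to 10 counts in DMSO-S0 and 4 to 14 in DMSO-S30. It passed the filter through its dTAG libraries, with 16 to 19 counts in dTAG-S0 and 12 to 37 in dTAG-S30. CXCL1 was higher by 0.93 in DMSO (adjusted p = 0.0286, edgeR), a call lost without DMSO-S0 replicate 2 or 3 or DMSO-S30 replicate 1 or 2 (adjusted p 0.0590 to 0.0984). In dTAG without serum CXCL1 was the 1 call of the list (14.3%, beside 0.855% of all genes called higher). Of the 7, 6 had an unadjusted p under 0.05, as did 11.7% of all genes. This share is not independent support, since the list was set with earlier results known and CXCL3 passed the filter through its dTAG libraries. With serum edgeR's quasi-likelihood test called 0 (3 at an unadjusted p under 0.05, 0 by DESeq2, 1 by the likelihood ratio test), and for the interaction 0 (2 at an unadjusted p under 0.05, 0 by DESeq2). Over all genes 0.596% were called higher and 0.634% lower with serum, and 0% and 0.0382% for the interaction. An unadjusted p under 0.05 was found for 10.4% and 3.16% of all genes in these comparisons.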

How the data were processed

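RNA-Seq was done on 12 libraries in 4 groups of 3 replicates. The study's methods call these biological replicates. The authors trimmed reads (Trim Galore 0.6.4), mapped them with STAR to hg38, and with featureCounts (Subread 1.6.3) counted reads over whole protein-coding genes, introns included. The deposited table holds unnormalized read counts of each gene and ERCC transcript. Strand use and the treatment of multimapping or overlapping reads are not given in the sources used here, so reads of overlapping genes cannot be told apart.

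Genes reaching 10 counts in 6 or more libraries were kept (13093 of 19901, with 69 of 92 ERCC transcripts). Upper-quartile scaling, 1 factor of unwanted variation from the ERCC counts, and edgeR 4.0.16's quasi-likelihood F-test (two-sided) were applied to all 12 libraries, with Benjamini-Hochberg adjustment over all genes tested and calls at an adjusted p under 0.05. The study's methods name edgeR's likelihood ratio test, which was an alternative here, as was DESeq2 1.42.0. CPM are gene counts scaled to a common library size (upper quartile), and per-kb values divide them by the span in the table. The SE follows from the estimate and its F statistic. Depth of 20537682 to 26278707 counts per library gave the members at least 173 reads each. Replicate libraries differed by more than counting noise (chi-square per degree of freedom 3.02 to 9.80).

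The members and lists were chosen with earlier results of these data known. Named were all members, the targeted gene TRIM28, per list up to 4 called genes with the largest change, and per member the 3 genes with the highest correlation. Genes named beyond this (PAN3, BIRC3, CXCL1 as a ZFP36 target, PLAUR, PLAU, VEGFA, TIA1, PPP2CA and other untested genes) complete a count or were chosen after their values were seen. Alternatives are in the closing section.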

Additional observations from a re-analysis of the deposited data

How the results depend on the processing

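The count of members called (4 with serum in each treatment, 0 in both dTAG comparisons and in the interaction) was identical under all 9 alternatives (TMM scaling, spike-in library sizes, no spike-in factor, 2 factors, DESeq2, the likelihood ratio test, no count filter, the replicate block, and fits of only the groups compared, which could not be made for the interaction) and on leaving out each of the 12 libraries in turn. Serum changes kept their direction and call in all of them, with ZFP36 at 3.37 to 3.51 in DMSO and 3.32 to 3.44 in dTAG on leaving out libraries. Differences near 0 changed sign. With spike-in library sizes the dTAG difference without serum was 0.00871 for ZFP36, 0.00527 for ZFP36L1 and 0.000645 for ZFP36L2. The ZFP36L1 difference with serum was -0.00612 with 2 factors, -0.000788 by DESeq2 and -0.00879 with only the groups compared. Leaving out 1 library gave -0.0759 to 0.00690 for ZFP36, -0.0558 to 0.0262 for ZFP36L1 and -0.11 to 0.0636 for ZFP36L2 without serum, -0.0308 to 0.0694 for ZFP36L1 and -0.0144 to 0.20 for ZFP36L2 with serum, and -0.16 to 0.0317 for ZFP36 and -0.0276 to 0.0928 for ZFP36L1 in the interaction. Without a change of sign it gave -0.18 to -0.0183 for ZFP36 with serum, 0.00808 to 0.25 for ZFP36L2 in the interaction, and for ZC3H12A 0.14 to 0.33 without serum and -0.25 to -0.15 with serum. No cause was tested.

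Same-numbered libraries of different groups did not clearly deviate together (18 correlations from -0.15 to 0.14, 1 of them over 0.1), so no pairing by number was seen. Libraries with different numbers were not compared, and a weak pairing cannot be told from none with 3 libraries per group. With the replicate block 4 members were called with serum in each treatment and 0 elsewhere, and over all genes 3513, 3279, 173, 167 and 7 were called in the 5 comparisons in place of 3439, 3203, 171, 161 and 5.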
